A study of Mus musculus with 6 samples.

Results

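The genes examined here are 6 genes of the hedgehog pathway, Gli2, Gli1, Ihh, Disp1, Hhat and Stk36, described where SP1 binds. SP1 is a broadly expressed zinc-finger protein that activates many promoters rich in G and C. A site belonged to a gene when its midpoint lay inside the gene, or within 50 kb of either of its ends, in the RefSeq annotation of mm10. This gave 57 of the 9001 sites of the authors' deposited table, and every one of the 6 genes had at least 1. Gli2 held 22 sites, Gli1 12, Hhat 10, Ihh 7, Disp1 5 and Stk36 1. All of these genes lie on chromosome 1 except Gli1, which lies on chromosome 10.

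ATAC-seq, in which the Tn5 transposase cuts open DNA, was used to measure accessibility in mouse embryonic stem cells (ESC) of the R1 line and in neural progenitor cells (NPC) also labelled R1, with 3 libraries of each. The labels give no treatment, no route by which the NPC were made and no word on whether the 3 libraries of each kind were grown apart. The p-values therefore reflect library-to-library spread, part of which can be technical. The authors' deposited table holds a mean signal (the mean over libraries of the normalized count), a log2 fold change of NPC over ESC with its standard error (SE), and an adjusted p for each site. Values per library were not analysed here and the depth is unknown. At all 9001 sites the deposited p was smaller than the p that the deposited fold change and its SE give, so it was not made from that pair of values. Whether the fold changes had been shrunk towards 0 is not given in the sources used here, and folds and 95% intervals hold only for the estimates as deposited. P-values recomputed from fold change and SE, with or without centring, serve as alternatives. A site is said to have risen or fallen in NPC when its deposited adjusted p was below 0.05, and is otherwise given as not called.

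Hedgehog proteins are secreted signals that pattern many embryonic tissues, among them the ventral neural tube. Hhat attaches palmitate to the ligands (Shh, Ihh and Dhh), Disp1 releases the lipid-bearing ligand from the cell that makes it, and binding of the ligand to the receptor Ptch1 frees Smo to act. The signal ends at the Gli zinc-finger transcription factors, of which Gli2 is the main activator at the start of a response and Gli1 a target gene that amplifies it. Stk36 is the mammalian counterpart of Fused, a kinase of the pathway in Drosophila, and in mice is known for its role in motile cilia.

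Promoter sequences were read for 5 of the 6 genes, in 6 windows of 300 bases, each running from 250 bases before a RefSeq transcription start to 50 bases past it (assembly GRCm38.p6, which is mm10). The GC box GGGCGG, the core of the motif that SP1 binds, was searched on both strands, with overlapping matches counted. It was present in the windows of Gli2, Ihh, Hhat and Stk36 and in neither window of Disp1. Of all 32851 promoter windows of that length, 35.7% held it. An SP1 site of the authors' deposited table lay over only 2 of the 6 windows, that of Gli2 and the inner start of Disp1. On chromosomes 1 and 10 together, 60.1% of the windows with the GC box and 18.2% of those without it had a site over them. The pair of windows with a site and that of Ihh, which has GC boxes and no site over it, are shown 5′ to 3′ on the strand of the gene, with the GC box or its reverse complement in capitals.

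Gli2, chr1:119053570-119053869, minus strand: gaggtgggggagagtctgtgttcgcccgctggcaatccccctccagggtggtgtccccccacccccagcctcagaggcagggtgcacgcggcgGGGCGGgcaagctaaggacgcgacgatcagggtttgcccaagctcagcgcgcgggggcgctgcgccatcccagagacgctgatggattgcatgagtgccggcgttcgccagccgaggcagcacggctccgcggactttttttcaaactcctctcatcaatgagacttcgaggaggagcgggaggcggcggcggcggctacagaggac

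Disp1 inner start, chr1:183147508-183147807, minus strand: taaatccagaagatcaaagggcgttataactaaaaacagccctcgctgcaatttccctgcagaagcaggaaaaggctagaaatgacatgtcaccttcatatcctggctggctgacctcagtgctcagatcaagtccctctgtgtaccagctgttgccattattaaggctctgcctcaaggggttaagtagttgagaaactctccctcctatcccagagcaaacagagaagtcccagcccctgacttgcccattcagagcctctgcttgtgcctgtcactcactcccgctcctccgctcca

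Ihh, chr1:74951623-74951922, minus strand: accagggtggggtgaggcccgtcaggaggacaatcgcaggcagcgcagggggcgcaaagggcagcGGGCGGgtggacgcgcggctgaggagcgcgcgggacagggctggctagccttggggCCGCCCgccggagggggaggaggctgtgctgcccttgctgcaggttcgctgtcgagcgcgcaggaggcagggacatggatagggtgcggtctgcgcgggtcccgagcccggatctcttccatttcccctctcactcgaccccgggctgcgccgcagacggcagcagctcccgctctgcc

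The Gli2 window has 1 GC box, 157 bases before the start, and 28 CG dinucleotides. The inner start of Disp1 has no GC box and 4 CG dinucleotides. The window of Ihh has a GC box 185 bases before the start and another, on the opposite strand, 129 bases before it. In the windows not shown, that of Hhat has 1 GC box, 32 bases before the start, and that of Stk36 has 2 overlapping ones, 27 and 22 bases before it.

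Across the 6 genes, 16 sites rose in NPC (28.1%), 21 fell (36.8%) and 20 were not called. Over all sites of the authors' deposited table, 22.8% rose, 32.6% fell and 55.4% were called in either direction, so the deposited shares at the hedgehog genes lay near those of the whole table. The median log2 fold change was -0.45 at the 57 sites and -0.29 at all sites of the authors' deposited table. With fold changes centred on the median of all sites and p-values recomputed, which raises every log2 value by 0.29, 20 of the 57 sites rose (35.1%) and 16 fell (28.1%), against 23.1% and 22.8% of all sites. The genes differed in their mix of deposited calls. Disp1 had rises only, Gli1 and Ihh had falls and no rise, and Gli2 and Hhat had both. A gene without a rise was common: 19 of the 70 protein-coding genes with as many sites as Gli1 had none, and 45 of the 198 with as many as Ihh. Without Gli2, which holds the most sites, 8 of 35 sites rose and 10 fell.

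**Figure D1:**
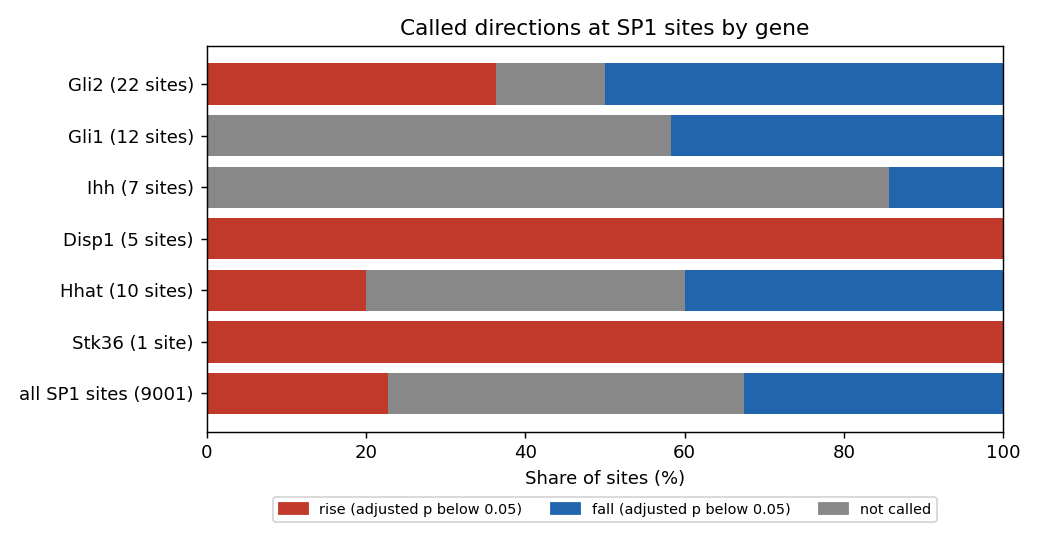
Share of SP1 sites (%, horizontal axis) that rose, were not called or fell in NPC against ESC, for each hedgehog gene and for all 9001 sites. All 5 sites of Disp1 rose, no site of Gli1 or Ihh did (3 sites of Gli1 did once fold changes were centred), and at Gli2 11 of 22 fell and 8 rose.

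Gli2 carried called changes in both directions along its length. The gene spans 220 kb on the minus strand of chromosome 1, from 118834061 to 119054405, and its sites are described here in the direction of transcription, with distances from the high-coordinate end of the gene, called its start. The RefSeq transcription start used for the promoter window lies 0.79 kb inside that end. Of the 16 sites inside the gene 8 rose, 7 fell and 1 was not called, while of the 5 sites before the start 4 fell and none rose. The site past the far end was not called. Over all 22 sites of Gli2, 10 log2 fold changes were above 0 and 12 below, so their median, -1.06 from the authors' deposited table, falls between opposed groups and describes neither.

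The steepest falls at Gli2 lay before its start. At chr1:119075410-119075910, 21.3 kb before the start, the log2 fold change was -6.88 ± 1.13 (SE), with an adjusted p of 5.89e-09 and a mean signal of 20.8, per the authors' deposited table. This was a 118-fold lower accessibility in NPC by the deposited estimate, and ranked 6 from the lowest of the 9001 log2 fold changes. The next site, chr1:119075790-119076290, overlaps it and had -6.22 ± 1.13 (adjusted p = 1.42e-07, mean signal 24.3) per the authors' deposited table. As the sites share bases, they do not count as separate evidence. A site 20.6 kb before the start, chr1:119074804-119075304, fell by 3.50 ± 0.67 on the log2 scale (adjusted p = 1.68e-06) per the authors' deposited table, and one 29.4 kb before it fell by 1.67 ± 0.51 (adjusted p = 0.00169). The farthest site on this side, 39.5 kb before the start, was not called, with -0.44 ± 0.52 per the authors' deposited table.

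The promoter site of Gli2, whose 500 bases cover the whole promoter window printed above, had the highest mean signal of the gene's 22 sites, 39.5, which ranked 331 of all 9001. It was not called per the authors' deposited table (0.52 ± 0.27, adjusted p = 0.0547), and its 95% interval ran from -0.012 to 1.05 on the log2 scale. That p lay close to the threshold, and with fold changes centred on the median of all sites and p-values recomputed the site counted as a rise (adjusted p = 0.00931). The changes at Gli2 called per the authors' deposited table thus lay at sites away from the promoter, all of them of lower mean signal.

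Inside the gene the first called pair went in opposite directions. A site 4.40 kb from the start rose by 1.42 ± 0.53 on the log2 scale (adjusted p = 0.00702), and the site whose first base lies 813 bp from it, 5.22 kb from the start, fell by 2.13 ± 0.57 (adjusted p = 0.000481), per the authors' deposited table. At 20.3 kb from the start, chr1:119033812-119034312 rose by 3.31 ± 0.43, or 9.93-fold, with a mean signal of 31.3 and the smallest adjusted p of the 57 sites, 1.65e-12, per the authors' deposited table. This rise stood alone between falls. From 40.0 to 50.3 kb 3 sites in a row fell, with log2 fold changes of -2.44 ± 1.11, -3.09 ± 1.17 and -3.68 ± 0.81 per the authors' deposited table. The first of them lost its call when the p-value was recomputed from the fold change and its SE (adjusted p = 0.0589).

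The longest run at Gli2 was one of rises in the middle of the gene. From 71.7 to 137.7 kb from the start 5 sites in a row rose, over 66.0 kb, with log2 fold changes between 2.29 and 3.55 per the authors' deposited table. The best supported were at chr1:118976478-118976978 (3.06 ± 0.58, adjusted p = 1.55e-06) and chr1:118982418-118982918 (2.89 ± 0.59, adjusted p = 8.78e-06) per the authors' deposited table. The 95% intervals of all 5 overlapped, so the sites of the run cannot be ranked by size. The site at 99.3 kb, chr1:118954844-118955344, rose by 2.43 ± 0.93 per the authors' deposited table (adjusted p = 0.00909) and lies within Gm51642, a long noncoding RNA annotated inside Gli2, beside the microRNA gene Mir6346 (chr1:118954220-118954300).

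Towards the far end of the gene the calls changed again. Sites 143.1 and 149.8 kb from the start fell, with log2 fold changes of -2.32 ± 0.61 (adjusted p = 0.000423) and -3.36 ± 1.12 (adjusted p = 0.00326) per the authors' deposited table. The next site began 654 bp from the latter and rose by 2.88 ± 1.00 (adjusted p = 0.00479) per the authors' deposited table. The last site inside the gene, 216 kb from the start, fell by 4.05 ± 1.22 (adjusted p = 0.00112), and that past its end had 1.10 ± 0.95 (adjusted p = 0.194), per the authors' deposited table. In all, the 19 called sites of Gli2 formed 9 runs of like direction, with 8 changes of direction between them.

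**Figure D2:**
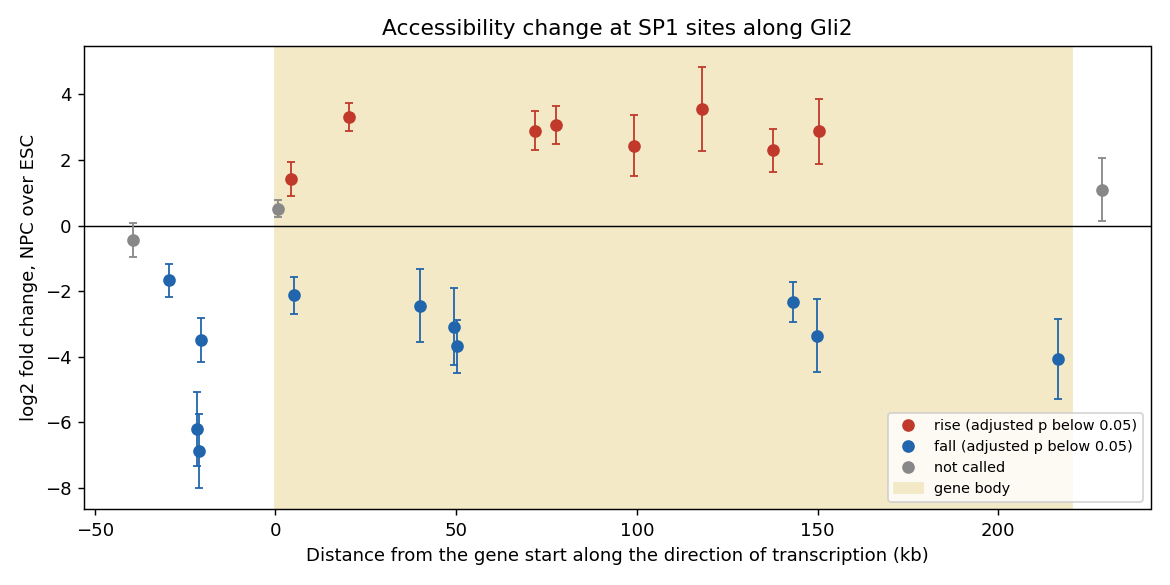
Log2 fold change of NPC over ESC (vertical axis, bars are the deposited SE) at the 22 SP1 sites of Gli2 against distance in kb from the gene start, with the gene body shaded. The falls before the start, the 5 rises between 71.7 and 137.7 kb and the mixed directions elsewhere can be followed from left to right.

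Changes of direction between neighbours were also common elsewhere. Among neighbouring sites of the authors' deposited table that were both called and began at most 50 kb apart, 35.2% of 2292 pairs went in opposite directions, against 6 of 16 such pairs (37.5%) at Gli2. Pairs that began 500 to 1000 bp apart were opposite in 12 of 114 cases (10.5%) over the whole table, and in 2 of 4 at Gli2. Those pairs are the one near 5 kb and the one near 150 kb. Of the 80 protein-coding genes with at least 10 called sites by the same rule, the less frequent direction held a median of 36.4% of the called sites, and 42.1% at Gli2. A share at least as high was found at 18 of those 80 genes, Gli2 included. Genes that lie close together share sites in these counts.

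The stretches around Gli2 differed in their calls. The next protein-coding gene past its far end, Tfcp2l1, encodes a transcription factor of naive pluripotency, and all 5 sites inside that gene fell, with log2 fold changes from -5.84 to -1.31 per the authors' deposited table. Between Tfcp2l1 and Gli2, over 149 kb, the table lists 3 sites, of which 1 fell and none rose. On the other side, the 361 kb between Gli2 and Inhbb, an activin subunit gene, hold 22 sites, of which 13 fell and 6 rose. The 5 sites before the start of Gli2 are among these. The next site beyond the 50 kb limit, 93.3 kb from the gene on that side, had -3.82 ± 1.26 per the authors' deposited table.

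Gli1, the target and amplifier of the pathway, had 12 sites within reach, and most of them lie in or next to other genes of a dense stretch. The gene is 11.7 kb long, from 127329882 to 127341579 on chromosome 10. The site inside Gli1, chr10:127338794-127339294, had 0.25 ± 0.33 (adjusted p = 0.453, mean signal 19.8), and the site 0.94 kb past the high-coordinate end had -0.46 ± 0.40 (adjusted p = 0.223, mean signal 14.5), per the authors' deposited table. Neither was called. Their 95% intervals, from -0.40 to 0.90 and from -1.23 to 0.32, leave room for changes of up to about that size in either direction.

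The 5 falls within reach of Gli1 lay outside it. A site inside Arhgap9, 5.17 kb from Gli1, fell by 2.40 ± 0.68 on the log2 scale (adjusted p = 0.000983) per the authors' deposited table. The other falls lay on the side of the inhibin genes Inhbe and Inhbc, which encode activin subunits. The site inside Inhbe had -2.25 ± 0.59 (adjusted p = 0.000388), and that between the genes, 10.4 kb from Gli1, -4.38 ± 1.20 (adjusted p = 0.000383), per the authors' deposited table. A pair of overlapping sites inside Inhbc had -3.85 ± 1.25 (adjusted p = 0.00223) and -3.33 ± 1.38 (adjusted p = 0.0117) per the authors' deposited table, and the latter lost its call under centring (adjusted p = 0.0581). The remaining sites, in Mbd6, in and beside Mars1 and in R3hdm2, were not called, with values from -0.36 to 0.68 and mean signals of 16.2 to 54.1 per the authors' deposited table. Centring turned 3 of them, the pair in Mbd6 and that in R3hdm2, into called rises. In the deposited calls, sites of high mean signal around Gli1 were the uncalled ones, and each of the 5 falls had a mean signal of at most 10.7.

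Ihh, the one ligand gene among the 6, had weak sites and a single call. It spans 6.36 kb on the minus strand of chromosome 1, from 74945315 to 74951672. All 7 sites had negative log2 fold changes, from -3.26 to -0.16 per the authors' deposited table, but 6 were not called. The site inside Ihh, chr1:74948789-74949289 and 2.63 kb from the start, had -1.13 ± 0.77 (adjusted p = 0.102) per the authors' deposited table. The nearest site before the start, 12.9 kb away, had -1.23 ± 0.80 (adjusted p = 0.0914) per the authors' deposited table. Of the sites inside Nhej1, a DNA repair gene, that 28.5 kb before the start of Ihh had -2.61 ± 1.52 (adjusted p = 0.0532) and that 49.0 kb before it -1.85 ± 1.22 (adjusted p = 0.0905), per the authors' deposited table. The called fall, -3.26 ± 1.36 (adjusted p = 0.0124) per the authors' deposited table, lies 29.3 kb past the far end of Ihh inside Cfap65, a gene of motile cilia and flagella, and lost its call when fold changes were centred (adjusted p = 0.0603). The other sites inside Cfap65 had -0.16 ± 1.16 and -0.55 ± 1.05 per the authors' deposited table. Mean signals of the 7 sites ran from 1.86 to 5.65, all below the median of all sites, 5.78, and a log2 fold change as large as -2.61 was not called there.

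Disp1, which releases the ligand from the cell that makes it, had rises at all 5 of its sites. The gene spans 135 kb on the minus strand of chromosome 1, from 183086264 to 183221537. The site over its inner transcription start, the promoter window printed above, is chr1:183147295-183147795 and rose by 2.68 ± 0.64 on the log2 scale, or 6.39-fold (adjusted p = 0.000129, mean signal 9.61), per the authors' deposited table. A site farther into the gene, 80.8 kb from its start, rose by 3.09 ± 0.99 (adjusted p = 0.00264) per the authors' deposited table. The outer start of Disp1 had no site over it, and the nearest one, 51.9 kb from that start and beyond the 50 kb limit, had 0.21 ± 0.67 (adjusted p = 0.743) per the authors' deposited table.

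The other rises at Disp1 lay past its far end, with no protein-coding gene over them. At 38.0 kb from the gene, chr1:183048003-183048503 rose by 4.57 ± 1.01, or 23.8-fold (adjusted p = 1.88e-05, mean signal 11.2), per the authors' deposited table. The overlapping pair at chr1:183055010-183055510 and chr1:183055355-183055855, about 31 kb from the gene, had 4.40 ± 1.28 and 3.93 ± 1.05 per the authors' deposited table. The 95% intervals of all 5 sites at Disp1 overlapped, and the range from 2.60 to 3.93 was common to all of them. Of the 242 protein-coding genes with 5 sites by the same rule, Disp1 was the 1 gene at which all 5 rose, and all 5 fell at 3. The overlapping pair counts as 2 of the 5 sites at Disp1, which form 4 separate regions. These counts describe the listed regions and carry no test.

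Hhat, the acyltransferase of the ligands, had 2 rises and 4 falls among 10 sites. The gene is long, 258 kb on the minus strand of chromosome 1, from 192512825 to 192771219, and the called sites lay towards its ends. The site of largest change was chr1:192755621-192756121, 15.3 kb inside the start, which rose by 5.75 ± 1.13, or 54.0-fold (adjusted p = 1.16e-06, mean signal 17.2), per the authors' deposited table. It ranked 53 from the highest of the 9001 log2 fold changes. A site 7.99 kb before the start rose by 1.50 ± 0.64 (adjusted p = 0.0158) per the authors' deposited table.

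Falls at Hhat lay before these rises, between them and near the far end of the gene. The site nearest the start, 0.88 kb inside it and outside the promoter window, fell by 2.98 ± 1.20 (adjusted p = 0.0112) on the log2 scale, and the site 24.0 kb before the start fell by 4.08 ± 0.88 (adjusted p = 1.60e-05), per the authors' deposited table. Near the far end, sites 248 and 256 kb from the start fell, with log2 fold changes of -2.13 ± 0.80 (adjusted p = 0.00839) and -2.05 ± 1.02 (adjusted p = 0.0343) per the authors' deposited table. The last of these lost its call when the p-value was recomputed from the fold change and its SE (adjusted p = 0.0881), and the site nearest the start when fold changes were also centred (adjusted p = 0.0531). Between them, 3 sites 44.1, 48.8 and 173 kb from the start were not called, with -0.013 ± 0.41, -0.45 ± 0.82 and -0.025 ± 0.45 per the authors' deposited table. The site past the far end, inside the potassium channel gene Kcnh1, had -1.33 ± 1.00 (adjusted p = 0.134) per the authors' deposited table.

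**Figure D3:**
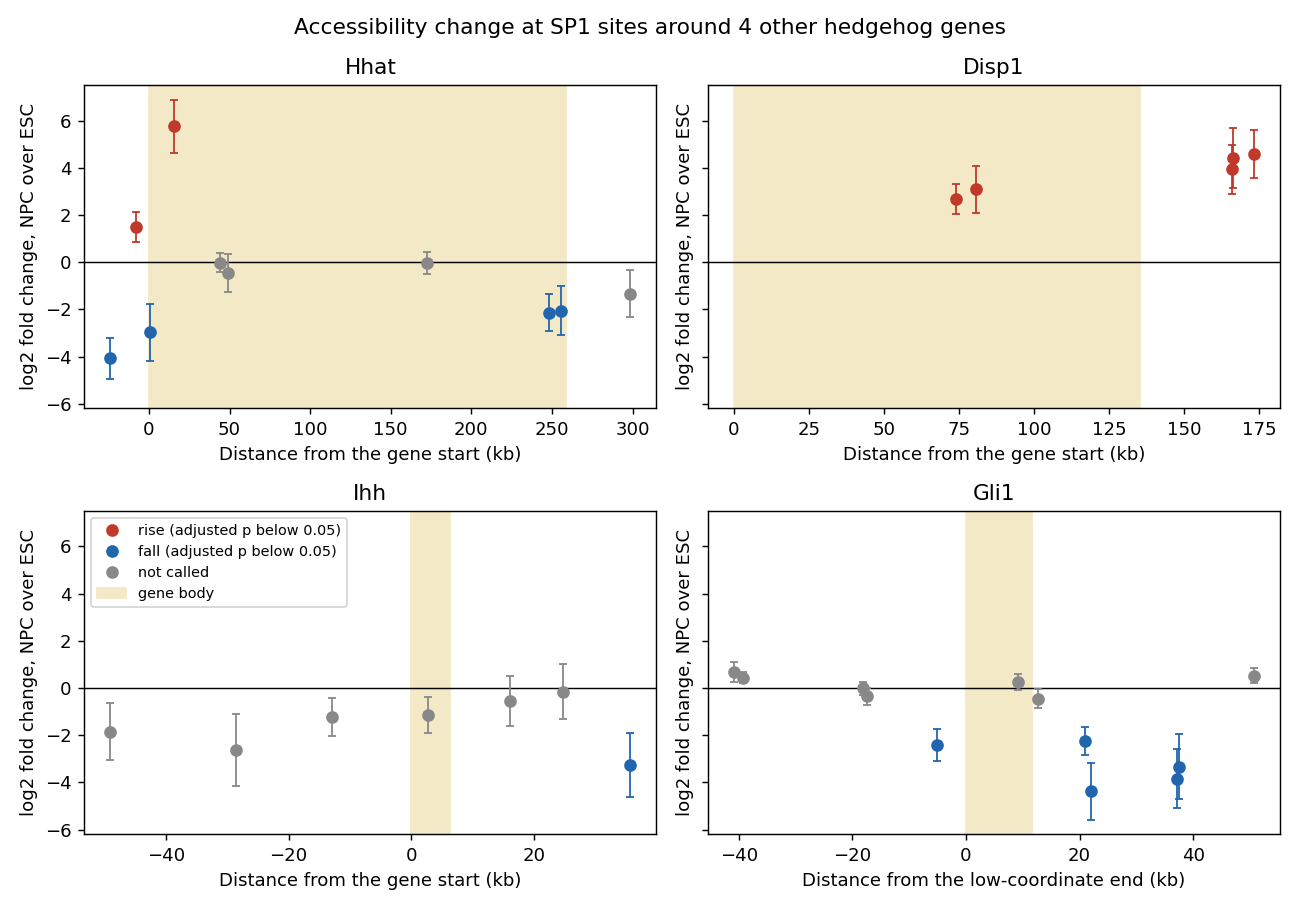
Log2 fold change of NPC over ESC (vertical axis, bars are the deposited SE) at the SP1 sites of Hhat, Disp1, Ihh and Gli1 against distance in kb from the gene start, or for Gli1 from its low-coordinate end, with the gene body shaded. All 5 sites of Disp1 lie above 0 and all 7 of Ihh below it, while the largest rise, 5.75, is 15.3 kb inside Hhat.

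Stk36 had a single site, and it lies in a neighbouring gene. Stk36 spans 35.5 kb on the plus strand of chromosome 1, from 74601391 to 74636894. The site, chr1:74661446-74661946, is 24.8 kb past the far end of Stk36 inside Ttll4, a tubulin glutamylase gene, and rose by 0.70 ± 0.34 on the log2 scale, or 1.63-fold (adjusted p = 0.0320, mean signal 25.6), per the authors' deposited table. It lost its call when the p-value was recomputed from the fold change and its SE (adjusted p = 0.0771). The promoter window of Stk36, which has the overlapping GC boxes, had no site over it.

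The largest changes were set against those of sites of like signal. The mean signal of the 57 sites had a median of 8.36, against 5.78 for all sites of the authors' deposited table, and 35 of them were at or above the latter. For the largest fall at Gli2, 2 of 322 sites with a mean signal within 10% of its own fell further. For the largest rise, inside Hhat, 3 of 323 rose further. For the largest rise at Disp1, the site 38.0 kb past its end, 37 of 557 rose further. For the rise of 4.40 at Disp1, 21 of 885 rose further, and the largest log2 fold change of any site of like signal was 4.57 per the authors' deposited table. The Gli2 and Hhat values thus lay near the extreme of their signal range. These sites were picked for the size of their change, so the ranks carry no test.

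**Figure D4:**
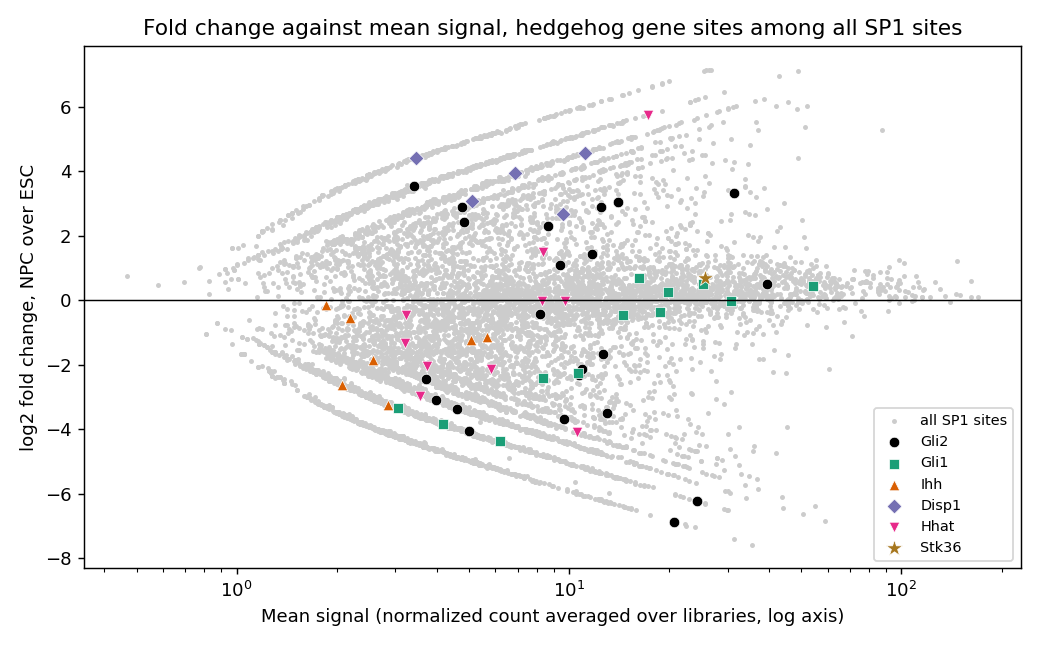
Log2 fold change of NPC over ESC (vertical axis) against mean signal (mean normalized count, log axis) for all 9001 SP1 sites in grey and for the sites of the 6 hedgehog genes in colour. The uncalled sites of Gli1, the promoter site of Gli2 at 39.5 and the site of Stk36 at 25.6 lie close to 0 at high signal, and the largest changes, -6.88 at Gli2 and 5.75 at Hhat, lie near the edge of the grey points.

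Other hedgehog pathway genes were taken from a list of 67, of which 61 are not among the 6 above and 7 of these had a site by the same rule. Their 60 sites comprised 14 rises (23.3%), 14 falls (23.3%) and 32 uncalled sites, with a median log2 fold change of -0.23 from the authors' deposited table. The shares over all sites were 22.8% for rises and 32.6% for falls, so rises lay near that share and falls below it. Rab23, a GTPase that restrains the pathway, had 2 rises and 3 falls among 12 sites, led by -3.14 ± 0.60 (adjusted p = 2.01e-06) per the authors' deposited table. Gpr161, a receptor of the cilium that restrains it through protein kinase A, had 1 rise among 6 sites, 1.13 ± 0.39 (adjusted p = 0.00397) per the authors' deposited table. Cul3, the scaffold of a ubiquitin ligase that acts on Gli proteins, had 4 falls among 7 sites and no rise, led by -2.44 ± 0.58 (adjusted p = 0.000123) per the authors' deposited table.

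Among genes of the cilium, in which the pathway operates in vertebrates, Ahi1 had 5 rises and 4 falls among 16 sites, and its leading site had -4.16 ± 0.60 (adjusted p = 2.49e-10) per the authors' deposited table. Kifap3, an accessory subunit of kinesin-2, had 2 falls among 7 sites, led by -3.30 ± 1.14 (adjusted p = 0.00429), and the only site of Cep290 rose by 3.04 ± 1.17 (adjusted p = 0.00881), per the authors' deposited table. Csnk1g2, a casein kinase gene, had 5 rises and 1 fall among 11 sites, led by a rise of 1.26 ± 0.26 (adjusted p = 5.30e-06) per the authors' deposited table.

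The calls were set beside the cell labels at marker genes within the listed regions. The marker lists were chosen with earlier results of these data known, so the counts are no independent check of the labels. By the same rule, 33 of 64 sites summed over 7 of the 11 listed pluripotency genes fell and 13 rose. At 3 of the 10 listed neural progenitor genes, 13 of 20 sites rose and 2 fell. Counts were summed gene by gene. A site within reach of more than 1 gene, as is possible for the neighbouring Lefty1 and Lefty2, was counted for each. Over all sites 22.8% rose and 32.6% fell. Among the pluripotency genes, Lefty2 had 4 rises and 4 falls and Nodal 4 rises and 3 falls, while each of the others had more falls than rises. Nr5a2, with 2 rises and 4 falls among 11 sites, nonetheless had a median log2 fold change of 1.36. Of the other lists, 12 of 26 sites at the neuron genes Map2 and Syt1 rose and 8 fell. These genes differed, with 10 rises and 2 falls at Map2 and 2 rises and 6 falls at Syt1. At the glial gene Gja1 1 of 7 sites rose and 4 fell, at the mesenchymal genes Fn1 and Prrx1 2 of 15 rose and 10 fell, and at the mesoderm and endoderm genes Sox17 and Mixl1 1 of 8 rose and 4 fell. Accessibility near a gene does not measure its expression, and the part of other cell types in the changes at the hedgehog genes was not tested.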

How the data were processed

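ATAC-seq libraries of R1 ESC and R1 NPC, 3 each, stand behind the table used, in which the authors compared NPC with ESC at high-confidence SP1 sites. The submitters' processing notes name mm10, BWA 2.1, Picard 2.23.8, MACS2 2.2.7, SAMtools 1.9 and DESeq2 (no version), without roles or settings. For counting, any Tn5 offset and the choice of sites, methods were not given in the sources used here. The deposited signal is, per the file headers, a mean normalized count over the libraries. The deposited log2 fold change has its standard error beside it, and the table's name gives the direction (NPC over ESC). The deposited p-value and adjusted p-value are the authors' own. Per-library values and depth were not analysed here, so no interval for counting error is given.

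Sites were joined to RefSeq genes (GRCm38.p6) by midpoint, within 50000 bp of either gene end, with Python 3.11.15 and pandas 2.3.3. Strand came from the RefSeq promoter table, which was matched by symbol for 5 of the 6 genes. Intervals of 95% are the deposited log2 fold change and its standard error under a normal distribution. The code for joining, adjustment and calling was tested on simulated data. Site coordinates are those of the table, whose counting base (0 or 1) is not stated. All sites of genes with few sites are given, for Gli2 all called ones in order, and for other pathway genes the site of smallest adjusted p. The genes, the pathway list, the marker lists and the settings were chosen with earlier results of these data known. Leaving out sites inside other genes, and leaving out Gli2, were added after seeing the data. A site near a gene need not act on it.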

Additional observations from a re-analysis of the deposited data

How the results depend on the processing

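How sites are tied to genes moved counts and medians, and also the number of sites. At Gli2 the falls numbered 7 of 17 sites within 10000 bp and 7 of 16 inside the gene alone, against 11 of 22. The rises stayed at 8, and the median log2 fold change of Gli2 turned from -1.06 to 1.10 and 0.97. Assigned by the nearest protein-coding gene end, Gli2 had 2 rises among 13 sites. The 6 genes together then had 7 rises and 12 falls among 27 sites. For the 6 genes, falls numbered 12 of 33 sites within 10000 bp and 10 of 27 inside the genes, against 21 of 57. Fewer falls were thus counted among fewer sites, at a similar share. Rises numbered 12 of 33 sites within 10000 bp and 11 of 27 inside the genes, against 16 of 57 (28.1%). Without sites inside other protein-coding genes they numbered 15 of 42. Under these narrower rules rises made up a larger share than under the main rule, and than the 22.8% over all sites. With sites of at least median signal, 12 falls were counted among 35 sites of the 6 genes. At Gli2 that setting gave 5 rises and 7 falls among 15 sites. Without Gli2, the counts were 8 rises and 10 falls among 35 sites. The counts under the other settings stayed within 1.5 times the main ones. The median at Gli2 ran from -2.13 to 1.10 and the 6-gene median from -0.46 to -0.013 over all settings.

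Centring on the median of all sites raises every log2 value by 0.29 and gave 20 rises and 16 falls at the 6 genes. Its p-values were recomputed too. Recomputing alone ended 3 of the deposited calls among the 57 sites. It could not make any, because every deposited p was smaller than the recomputed one. Centring on top of that ended 3 of the calls made with p-values recomputed and added 5. None turned direction. Over all sites, rises and falls numbered 2052 and 2934 as deposited, 1688 and 2382 with p-values recomputed, and 2081 and 2049 when also centred. No paired analysis was possible because the table has no column per library, and leaving out single replicates was not run for the same reason. The depth behind the mean signals is unknown.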
